A study of Mus musculus with 18 samples.

Results

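The mitosis genes are a set of 41 genes whose products carry a cell into, through and out of mitosis, and which were chosen by name for their known roles. Of these, 40 were listed in the files of all 18 samples, out of 20207 genes listed in all, and each of the 40 passed the filter for testing, which 12731 genes passed. The gene for the kinase Cdk1 is not listed under that symbol. The row Cdc2a carries an older name that RefSeq gives as a synonym of Cdk1, and its values are given apart and enter no count below. Levels of mRNA were measured by mRNA-seq in NIH3T3 cells, an immortalised line of mouse embryonic fibroblasts. All cells stably expressed DD-sfGFP, a destabilizing domain (DD) fused to superfolder GFP, and were kept with S1, the small molecule that holds the DD folded, so the controls carried the fusion and the ligand as well. The 3 control samples were taken at 0 min from cells grown at 37°C without stress. HS samples were taken 45 and 135 min after a shift to 42°C, and tunicamycin samples 45, 135 and 405 min after addition of the drug at 5 μM, with 3 samples at each time. Tunicamycin blocks N-linked glycosylation and starts the unfolded protein response of the secretory pathway (erUPR). No HS sample was taken at 405 min, and every comparison with unstressed cells uses the same 3 control samples. The 18 samples hold no unstressed cells of a later time and no vehicle control for tunicamycin. Effects of a stress and of time in culture therefore cannot be told apart in comparisons with the control. The methods describe stable lines sorted for bright GFP, and the labels do not say that replicates came from separate cultures, so p-values here measure the spread between samples, which may be technical.

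Mitosis is driven by cyclin B bound to Cdk1, which Cdc25 phosphatases switch on and which sets off the polo-like and Aurora kinases. Kinetochores built on centromeres attach chromosomes to spindle microtubules, and the spindle checkpoint holds the cell until all are attached. The ubiquitin ligase APC/C with its activator Cdc20 then marks securin and cyclin B for destruction, so that separase parts the sister chromatids and the cell divides. Most of these genes are transcribed mainly in late S phase, G2 and mitosis. The samples are averages over all cells of a dish, so fewer cells in G2 and mitosis and less mRNA per cell cannot be told apart.

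Reads counted on genes ranged from 33415592 to 66478268 per library, of which 0.195% to 0.546% fell on the mitosis genes, and the lowest count of any of them in any library was 47 reads. Fibroblast markers were present in all libraries (Vim at 1637 to 3689 RPKM and Col1a1 at 649 to 4096 RPKM, reads per kilobase of gene and per fixed number of library reads), except Fap, which did not exceed 0.0613 RPKM. Of 11 markers of epithelial, leukocyte, endothelial and muscle cells, 10 did not exceed 0.390 RPKM in any library, among them Epcam at no more than 0.0217, Ptprc at no more than 0.00532 and Myod1 at no more than 0.0259 RPKM. The exception was the leukocyte marker Cd68, a lysosomal protein, at 3.72 to 7.61 RPKM, which made up nearly the whole leukocyte sum in every library, and its part in the results was not tested. Libraries of 1 group differed along 1 main direction, which held 68.1% of the spread within groups and whose gene weights had a Spearman correlation of -0.70 with transcript GC content over 12437 genes that share these libraries. The mitosis genes are GC-poor, with a median GC content of 46.9% against 50.6% for the tested genes, and 30 of 40 lie below that median. To follow this, the median log2 level of the GC-poorest quartile of the tested genes minus that of the GC-richest quartile was taken in each library relative to the control mean. It was -0.52 in control replicate 1, -1.39 and -1.64 in HS 45 min replicates 1 and 2, -1.72 and -0.63 in HS 135 min replicates 2 and 3, and -1.11 in Tu 135 min replicate 1, where Tu is tunicamycin. In the other 12 libraries it lay between -0.45 and 0.27. The 3 libraries lowest on this measure (HS 135 min replicate 2 and HS 45 min replicates 2 and 1) were also the 3 in which the median of the mitosis genes was lowest, as the plot of libraries shows. Values are therefore given library by library below.

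**Figure D1:**
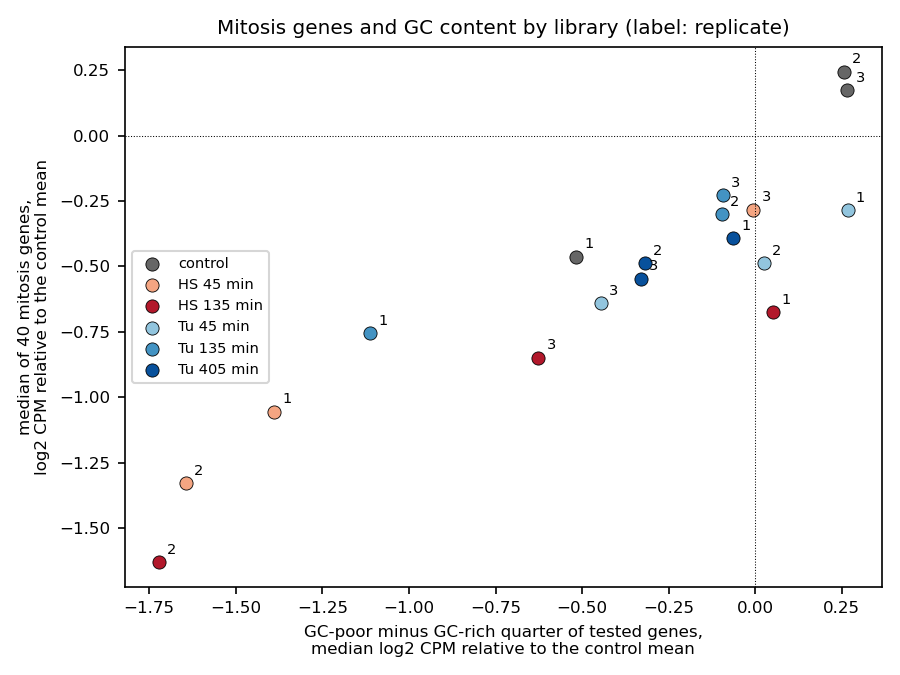
Each point is 1 library, with its replicate number. The x axis is the median log2 CPM of the GC-poorest minus the GC-richest quartile of tested genes and the y axis the median log2 CPM of 40 mitosis genes, both relative to the control mean. HS 135 min replicate 2 lies lowest at -1.63 on the y axis, and control replicates 2 and 3 highest at 0.25 and 0.17.

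In the control the mitosis genes were well expressed, with a median of 33.6 RPKM over the 40 genes against 6.65 RPKM over all tested genes. RPKM is scaled for transcript length, so levels of different genes can be set side by side. Cdc20, the activator of the APC/C, was highest at 172 ± 17.6 RPKM (SD, n = 3), ahead of Ube2c, the ubiquitin-conjugating enzyme of the APC/C, at 165 ± 47.1 RPKM, and of Birc5 (survivin), a chromosomal passenger protein, at 99.4 ± 26.9 RPKM. Lowest was Bub1, a checkpoint kinase, at 4.87 ± 2.73 RPKM. Ranked by mean, 38 of 39 neighbouring pairs of genes overlapped in their 3 values, the exception being Plk1 (79.6 ± 6.26 RPKM) above Bub3 (68.6 ± 4.56 RPKM). Control replicate 1 was the low sample of the group. Nuf2, a subunit of the NDC80 complex that binds microtubules at the kinetochore, had 3.94 RPKM there and 13.2 and 15.4 RPKM in the other two, and 37 of the 40 genes lay below the control mean in that library.

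The promoters of these genes share sequence that was not used to choose them. A window from 250 bases before to 50 bases after the transcript start was available in RefSeq (GRCm38.p6) for 34 of the 41 genes, with 37 windows in all. These were searched on both strands for the cell cycle genes homology region (CHR), taken as TTTGAA or TTCGAA, and for CCAAT, the box bound by NF-Y. The motifs can share at most 1 base. A CHR was found in 30 of the 37 windows (81.1%) against 19.2% of all 32851 windows in the table, a CCAAT in 28 (75.7%) against 37.4%, and both in 26 (70.3%) against 7.52%. A match describes the letters only. Shown are the windows of 5 genes that the results turn on, in lower case with CHR and CCAAT matches in capitals. At 405 min of tunicamycin Ccnb1, Cenpf and Cenpe were called lower than the control and Cdc20 and Plk1 were not. The windows are chr4:118437294-118437593 on the minus strand for Cdc20, chr7:122159185-122159484 on the plus strand for Plk1, chr13:100786437-100786736 on the minus strand for Ccnb1, chr1:189688037-189688336 on the minus strand for Cenpf and chr3:135212313-135212612 on the plus strand for Cenpe.
Cdc20: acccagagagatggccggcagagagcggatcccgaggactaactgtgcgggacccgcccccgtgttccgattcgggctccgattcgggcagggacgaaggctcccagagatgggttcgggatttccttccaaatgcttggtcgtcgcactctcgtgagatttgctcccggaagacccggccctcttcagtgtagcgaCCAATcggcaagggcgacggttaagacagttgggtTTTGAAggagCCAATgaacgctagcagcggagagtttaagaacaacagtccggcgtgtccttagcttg
Plk1: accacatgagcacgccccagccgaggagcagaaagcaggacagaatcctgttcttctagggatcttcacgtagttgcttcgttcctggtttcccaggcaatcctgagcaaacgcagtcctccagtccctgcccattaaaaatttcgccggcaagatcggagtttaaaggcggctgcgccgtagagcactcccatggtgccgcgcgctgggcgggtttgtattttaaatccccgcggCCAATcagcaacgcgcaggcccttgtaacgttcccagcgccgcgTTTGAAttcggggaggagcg
Ccnb1: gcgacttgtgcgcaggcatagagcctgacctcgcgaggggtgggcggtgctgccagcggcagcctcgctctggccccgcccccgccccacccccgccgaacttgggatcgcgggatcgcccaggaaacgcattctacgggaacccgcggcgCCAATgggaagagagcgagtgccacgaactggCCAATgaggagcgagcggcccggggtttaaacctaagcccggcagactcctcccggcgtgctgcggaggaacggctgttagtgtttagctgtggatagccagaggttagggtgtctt
Cenpf: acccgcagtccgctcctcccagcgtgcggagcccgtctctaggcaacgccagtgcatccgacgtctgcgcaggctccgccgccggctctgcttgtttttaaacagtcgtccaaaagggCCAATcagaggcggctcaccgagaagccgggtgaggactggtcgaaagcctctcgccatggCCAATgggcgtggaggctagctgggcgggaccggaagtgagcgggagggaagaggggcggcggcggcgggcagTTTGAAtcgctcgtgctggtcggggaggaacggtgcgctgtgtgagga
Cenpe: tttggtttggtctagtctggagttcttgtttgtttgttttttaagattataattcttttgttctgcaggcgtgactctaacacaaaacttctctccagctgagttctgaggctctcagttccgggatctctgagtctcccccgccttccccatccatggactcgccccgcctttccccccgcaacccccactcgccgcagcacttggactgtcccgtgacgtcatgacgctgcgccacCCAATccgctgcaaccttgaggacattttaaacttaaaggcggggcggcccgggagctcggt
Cdc20 has 1 CHR and 2 CCAAT matches, Plk1 has 1 of each, and Cenpf has 1 CHR and 2 CCAAT matches. In these windows Ccnb1 has 2 CCAAT matches and Cenpe 1, with no CHR match in either. The 5 printed windows do not stand for the set. Over all members called lower than the control at 405 min, a CHR was in 14 of 17 windows (82.4%), beside 81.1% for the whole set. Among members called between 135 and 405 min of tunicamycin, a CHR was in 7 of 7 windows of those that were higher at 405 min. These came from 6 genes, since Bub3 has overlapping windows and Aurkb has none. Of those that were lower, 5 of 6 windows had a CHR, from 6 genes, with no window for Incenp and Foxm1.

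Levels of the mitosis genes were below the control mean in most stressed samples, as the map of all 40 genes shows. Their median log2 fold change against the control was -0.82 at 45 min and -0.99 at 135 min of HS, and -0.53, -0.45 and -0.49 at 45, 135 and 405 min of tunicamycin, beside medians between -0.0319 and -0.00289 for all tested genes. Fold changes come from edgeR's quasi-likelihood test on the deposited counts, scaled by TMM, and a gene is called higher or lower where its Benjamini-Hochberg adjusted p is under 0.05 over the 12731 tested genes. Counts from other fits that stand without the share of all tested genes show only how the count moves. RPKM is scaled by total reads and not by TMM. With total counts the median of all tested genes itself was -0.19 at both times of HS and 0.10, -0.00328 and -0.11 at the 3 times of tunicamycin, and the mitosis genes lay at -0.75, -0.91, -0.53, -0.44 and -0.48 relative to it. An offset for transcript GC content in each library changed these medians to -0.56, -0.84, -0.52, -0.33 and -0.43. No mitosis gene was called higher than the control in any of the 5 comparisons. Of the 40 genes, 15 were called in none of them: Aurka, Birc5, Incenp, Mad2l1, Ttk, Cenpa, Ndc80, Spc25, Kif20b, Tpx2, Nusap1, Hmmr, Ect2, Ube2c and Pttg1.

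**Figure D2:**
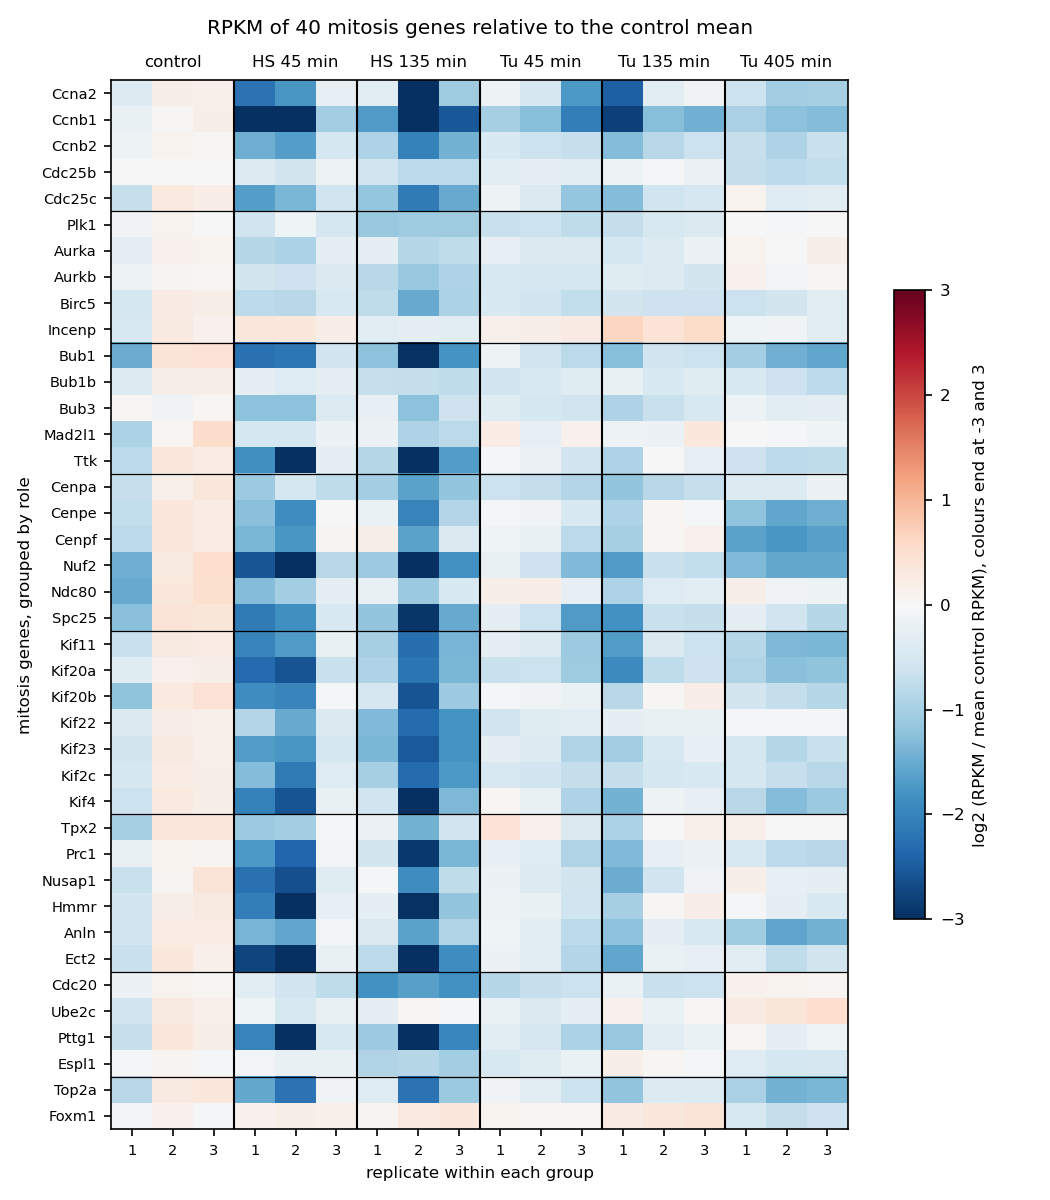
Rows are the 40 mitosis genes grouped by role, columns the 18 libraries, and colour the log2 ratio of a library's RPKM to the mean control RPKM, with colours ending at -3 and 3. The darkest columns are HS 45 min replicates 1 and 2 and HS 135 min replicate 2.

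At 45 min of HS 37 of the 40 mitosis genes had a log2 fold change below 0, beside 6599 of the 12731 tested genes, and none of them passed the test. For the genes given first here, replicate 3 was the highest of the 3 HS libraries. Ccnb1, which encodes cyclin B1, had 4.11, 1.62 and 25.3 RPKM against 44.5, 53.1 and 58.2 RPKM in the control. Every HS sample lay below every control sample, at a log2 fold change of -2.29 (edgeR, standard error 0.814, adjusted p = 0.234), the lowest of the set. Ect2, the exchange factor that activates RhoA for cytokinesis, had 2.09, 1.07 and 12.1 RPKM against 8.94, 17.7 and 15.7 RPKM, and Pttg1 (securin) had 9.97, 1.05 and 28.7 RPKM against 24.8, 50.3 and 45.2 RPKM. For both, replicate 3 reached into the control range. Plk1, a mitotic kinase, had 52.5, 73.3 and 55.6 RPKM against 73.4, 85.9 and 79.4 RPKM. Ttk (Mps1), a kinase of the spindle checkpoint, had 1.54, 0.391 and 4.58 RPKM against 3.17, 7.05 and 6.49 RPKM. The HS libraries lay closer together for Plk1 than for Ttk, which overlapped the control.

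No mitosis gene was called by edgeR at 45 min of HS, nor was any other gene. The share called over all tested genes was thus 0% in each direction. Log2 fold changes over the tested genes still ran from -3.06 to 4.99, and the study's own edgeR analysis reported genes in both directions. The share of 0% does not show that no gene responded. At an unadjusted p under 0.05, 13 of the 40 (32.5%) were lower and 0 were higher, beside 7.16% of all tested genes lower and 12.3% higher. DESeq2 called 2 lower. Without HS 45 min replicate 3, the library nearest the control in GC contrast, edgeR called 26 of them lower, beside 23.9% of all tested genes lower and 21.5% higher.

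At 135 min of HS, 9 mitosis genes fell and 0 rose (22.5% of the 40), beside 2.64% of all tested genes lower and 4.75% higher. They comprised 4 of 7 kinesins (Kif20a, Kif22, Kif23 and Kif2c), the kinases Plk1 and Aurkb, the Cdk1 partner Ccnb2 (cyclin B2) and activator Cdc25c, and Cdc20. Cdc20 had 48.8, 56.0 and 49.0 RPKM against 152, 186 and 179 RPKM in the control. These groups lie far apart and each is tight. The log2 fold change of Cdc20 was -1.54 (standard error 0.213, adjusted p = 0.0146, edgeR), a 2.91-fold fall. The largest falls among called genes were those of Kif23 and Kif22. Kif23, the motor of the centralspindlin complex at the midzone, had 11.2, 5.05 and 8.34 RPKM against 19.95, 35.0 and 32.1 RPKM (log2 fold change -1.66, standard error 0.294, adjusted p = 0.0222, edgeR). Kif22, a kinesin that binds chromosome arms and pushes them to the spindle equator, had 11.4, 5.78 and 8.29 RPKM against 21.0, 32.9 and 31.8 RPKM (log2 fold change -1.58, standard error 0.262, adjusted p = 0.0201, edgeR). In both, the HS and control samples did not overlap, and replicate 2 of HS was lowest.

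The kinases Plk1 and Aurkb had smaller fold changes than Cdc20, Kif23 and Kif22 at 135 min of HS, and little spread. Plk1, which acts at centrosomes, kinetochores and the midzone, had 36.1, 38.1 and 37.8 RPKM against 73.4, 85.9 and 79.4 RPKM (log2 fold change -0.89, standard error 0.193, adjusted p = 0.0358, edgeR). Aurkb, the kinase of the chromosomal passenger complex, had 30.0, 24.5 and 28.1 RPKM against 48.0, 57.4 and 55.9 RPKM (log2 fold change -0.78, standard error 0.175, adjusted p = 0.0399, edgeR). All 3 HS values lay below all 3 control values for each kinase. Aurka, the spindle pole kinase, had 38.9, 26.5 and 28.5 RPKM against 39.7, 52.9 and 51.5 RPKM and did not pass the test (log2 fold change -0.44, adjusted p = 0.175, edgeR). Kif20a, the kinesin that carries the passenger complex to the midzone, fell from 34.2, 48.5 and 49.7 RPKM to 23.2, 9.66 and 17.1 RPKM (log2 fold change -1.25, standard error 0.280, adjusted p = 0.0393, edgeR).

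The numerically largest differences at 135 min of HS did not pass the test, and for these the 3 HS libraries lay far apart. Ccnb1 had 15.9, 0.766 and 8.91 RPKM against 44.5, 53.1 and 58.2 RPKM (log2 fold change -2.51, standard error 0.791, adjusted p = 0.0863, edgeR), and Pttg1 had 18.7, 0.950 and 10.4 RPKM against 24.8, 50.3 and 45.2 RPKM (log2 fold change -1.89, adjusted p = 0.156). Top2a, the topoisomerase that untangles sister chromatids, had 36.7, 10.3 and 22.4 RPKM against 26.9, 57.5 and 59.5 RPKM, and the 2 groups overlapped. None of the genes grouped by role under centromere and kinetochore or under spindle checkpoint was among the 9, though Plk1 also acts at kinetochores. The same held for the roles of spindle assembly, midzone and cytokinesis and of chromosome structure and transcription. At an unadjusted p under 0.05 (edgeR), 3 of 6 kinetochore and 3 of 5 checkpoint genes were lower, beside 1721 of 12731 tested genes. Cenpe, the kinetochore motor, had 8.65, 2.47 and 5.38 RPKM against 5.91, 12.3 and 11.5 RPKM, Ndc80 had 7.23, 3.88 and 6.12 RPKM against 2.96, 10.5 and 11.8 RPKM, and Bub1b (BubR1) had 22.7, 22.2 and 21.6 RPKM against 27.4, 41.0 and 41.2 RPKM. Only Bub1b of these 3 had groups that did not overlap (log2 fold change -0.52, adjusted p = 0.153, edgeR).

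The count at 135 min of HS rested on few libraries. It was 5 without control replicate 1, and 0 without control replicate 2, control replicate 3 or HS 135 min replicate 3. With the GC offset 15 were lower, among them all 9. DESeq2 called 19 lower. The share of all tested genes called in these fits is not given here, so these counts do not set the mitosis genes apart.

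Between 45 and 135 min of HS no mitosis gene passed the test with edgeR, and neither did any other gene (0% in each direction). At an unadjusted p under 0.05, 8 were lower at 135 min and 0 higher (20% of the 40), beside 6.46% of all tested genes lower and 5.17% higher, and DESeq2 called 1. Cdc20 went from 137, 115 and 102 RPKM to 48.8, 56.0 and 49.0 RPKM (log2 fold change -1.24, standard error 0.251, adjusted p = 0.174, edgeR). Plk1 went from 52.5, 73.3 and 55.6 RPKM to 36.1, 38.1 and 37.8 RPKM. The samples of the 2 times did not overlap for either gene. Espl1 (separase), the protease that cuts cohesin, had 15.2, 13.7 and 13.8 RPKM at 45 min and 8.63, 8.88 and 7.80 RPKM at 135 min, again without overlap (log2 fold change -0.79, adjusted p = 0.236, edgeR).

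**Figure D3:**
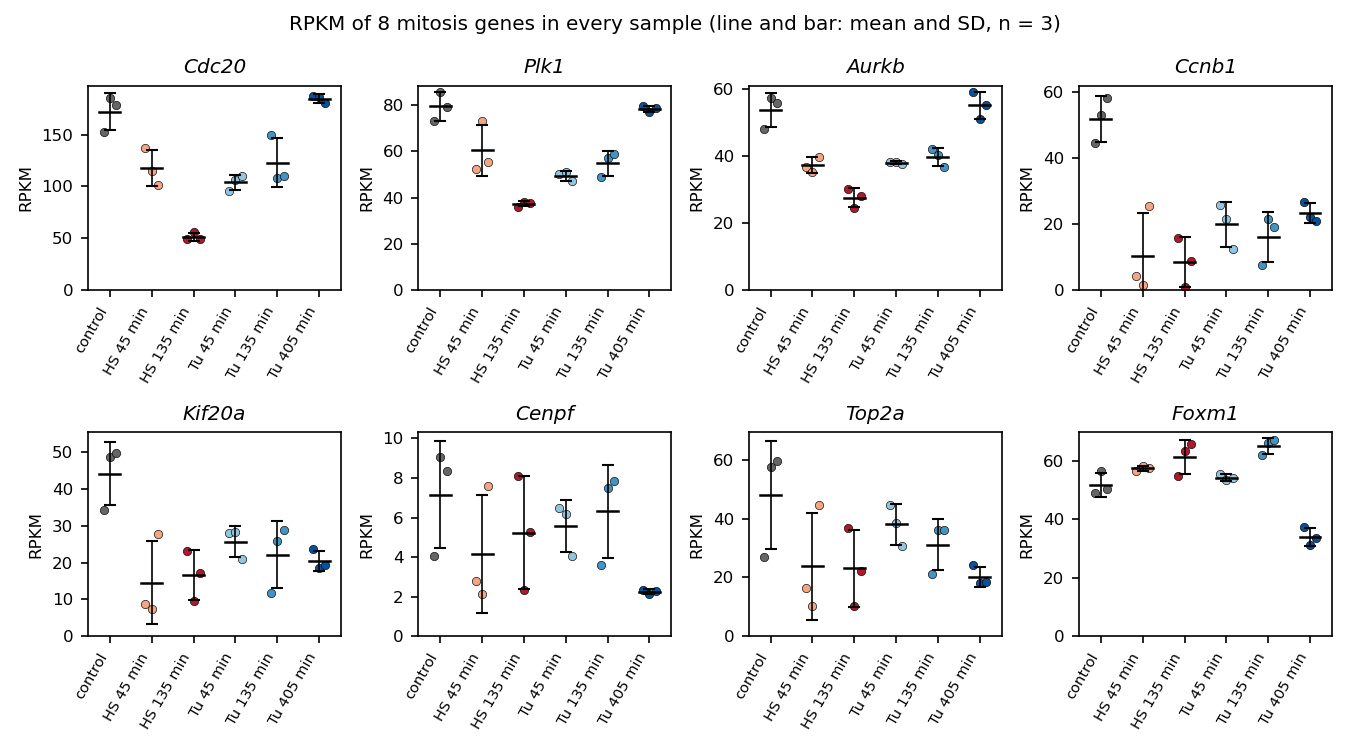
RPKM on a linear axis from 0 for 8 mitosis genes. Points are samples, and the line and bar are the mean and SD of 3 samples. Cdc20 is lowest at 135 min of HS (48.8 to 56.0 RPKM) and at 180.2 to 188 RPKM at 405 min of tunicamycin. Cenpf has its lowest group mean at 405 min of tunicamycin (samples at 2.13 to 2.36 RPKM), though HS 45 min replicate 2 has 2.12 RPKM.

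At 45 min of tunicamycin cyclin B genes, kinases and Cdc20 were lower than in the control. In all 7 mitosis genes fell and 0 rose (17.5% of the 40), beside 2.17% of all tested genes lower and 4.01% higher: Ccnb1, Ccnb2, Plk1, Aurkb, Bub3, Kif20a and Cdc20. Ccnb1 fell most, from 44.5, 53.1 and 58.2 RPKM to 25.9, 21.5 and 12.3 RPKM (log2 fold change -1.47, standard error 0.248, adjusted p = 0.0202, edgeR), a 2.76-fold change with no overlap. Kif20a had 27.9, 28.2 and 21.0 RPKM against 34.2, 48.5 and 49.7 RPKM (log2 fold change -0.86, standard error 0.170, adjusted p = 0.0312, edgeR). Cdc20 had 95.8, 106 and 110 RPKM against 152, 186 and 179 RPKM (log2 fold change -0.80, standard error 0.129, adjusted p = 0.0160, edgeR). For each of these genes all tunicamycin samples lay below all control samples.

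The kinases Plk1 and Aurkb fell with little spread between samples. Plk1 had 50.1, 51.0 and 47.1 RPKM at 45 min of tunicamycin against 73.4, 85.9 and 79.4 RPKM (log2 fold change -0.77, standard error 0.113, adjusted p = 0.0123, edgeR), and Aurkb had 38.3, 38.2 and 37.6 RPKM against 48.0, 57.4 and 55.9 RPKM (log2 fold change -0.58, standard error 0.113, adjusted p = 0.0303, edgeR). Tpx2, which activates Aurka on the spindle, had 46.2, 38.5 and 26.1 RPKM against 17.5, 43.6 and 43.9 RPKM, and Ndc80 had 9.52, 9.64 and 7.07 RPKM against 2.96, 10.5 and 11.8 RPKM. Both overlapped the control, within which replicate 1 stood apart. The count of 7 became 30 lower without control replicate 1, beside 8.70% of all tested genes lower and 10.9% higher. It was 0 without control replicate 2, control replicate 3 or Tu 45 min replicate 2. It was 1 without Tu 45 min replicate 1 and 3 without Tu 45 min replicate 3, and with the GC offset it was 18. No share of all tested genes is given for these last fits.

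At 135 min of tunicamycin none of the mitosis genes passed the test with edgeR, beside 0.00785% of all tested genes lower and 0.126% higher. The study, also with edgeR, reported more genes in each direction at this time. At an unadjusted p under 0.05, 10 of the 40 were lower (25%) and 2 higher (5%), beside 8.49% of all tested genes lower and 10.1% higher, and DESeq2 called 3 lower. Ccnb1 had 7.48, 21.4 and 19.2 RPKM, all below the control (log2 fold change -1.65, standard error 0.337, adjusted p = 0.0950, edgeR). Plk1 had 48.8, 57.1 and 59.1 RPKM and Aurkb 42.1, 40.2 and 36.8 RPKM, each below all control samples too, with adjusted p = 0.176 and 0.272. Replicate 1, the library of low GC contrast, held the lowest value of Ccna2 (cyclin A2) at 10.7 RPKM against 46.8 and 54.8 RPKM in the other two. Without that library 1 mitosis gene was called lower.

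At 405 min of tunicamycin kinetochore genes, kinesins and cyclins were among those lower than in the control. In all 19 mitosis genes fell and 0 rose (47.5% of the 40), at a time when 23.5% of all tested genes were lower and 23.3% higher. The 3 largest falls were in kinetochore genes, where 3 of the 6 genes grouped under centromere and kinetochore were called. Cenpa, Spc25 and Ndc80 were not called. Their means were 38.2, 3.89 and 8.32 RPKM against 47.6, 5.72 and 8.44 RPKM in the control. Cenpf, a large protein of the kinetochore corona, had 2.36, 2.13 and 2.30 RPKM against 4.05, 9.08 and 8.33 RPKM (log2 fold change -1.56, standard error 0.254, adjusted p = 0.00164, edgeR), a 2.95-fold fall. Cenpe had 4.26, 3.33 and 3.57 RPKM against 5.91, 12.3 and 11.5 RPKM (log2 fold change -1.31, standard error 0.238, adjusted p = 0.00282, edgeR). Neither gene overlapped the control. Nuf2 had 4.34, 3.72 and 3.71 RPKM against 3.94, 13.2 and 15.4 RPKM (log2 fold change -1.36, standard error 0.400, adjusted p = 0.0234, edgeR) and did overlap it, through control replicate 1.

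Top2a and Foxm1 also fell. Top2a went to 24.3, 18.04 and 18.5 RPKM from 26.9, 57.5 and 59.5 RPKM (log2 fold change -1.14, standard error 0.262, adjusted p = 0.00813, edgeR). Foxm1, the transcription factor that activates many G2 and mitosis genes, fell to 37.5, 31.4 and 33.5 RPKM from 48.9, 56.5 and 50.3 RPKM (log2 fold change -0.52, standard error 0.118, adjusted p = 0.00792, edgeR). All tunicamycin samples lay below all control samples for both. Among the motors, 5 of 7 kinesins fell. Kif11 (Eg5), which pushes the spindle poles apart, had 6.33, 4.502 and 4.47 RPKM against 7.26, 13.8 and 13.4 RPKM (log2 fold change -1.08, standard error 0.233, adjusted p = 0.00624, edgeR), and Kif20a had 23.6, 18.6 and 19.2 RPKM against 34.2, 48.5 and 49.7 RPKM (log2 fold change -1.02, standard error 0.153, adjusted p = 0.00113, edgeR). Neither kinesin overlapped the control.

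Of the cyclins and Cdc25 phosphatases in the set, 4 of 5 fell. Ccnb1 had 26.7, 22.2 and 20.9 RPKM (log2 fold change -1.07, standard error 0.130, adjusted p = 0.000415, edgeR), and Ccna2, Ccnb2 and the phosphatase Cdc25b had log2 fold changes of -0.79, -0.67 and -0.66. In the checkpoint, Bub1b fell to 26.6, 23.6 and 21.1 RPKM from 27.4, 41.0 and 41.2 RPKM (log2 fold change -0.53, standard error 0.159, adjusted p = 0.0256, edgeR) and Bub1 fell too (log2 fold change -1.22, adjusted p = 0.0409, edgeR). Anln (anillin), Prc1, Espl1, Kif23, Kif2c and Kif4 completed the list, with log2 fold changes between -1.24 and -0.38.

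The 5 genes grouped as mitotic kinases and chromosomal passengers, Plk1, Aurka, Aurkb, Birc5 and Incenp, were not among the 19. The checkpoint kinase Bub1, grouped elsewhere, was among them. Plk1 stood at 79.7, 77.2 and 78.7 RPKM within the control range of 73.4 to 85.9 RPKM, with a log2 fold change of 0.07 (edgeR, standard error 0.111, adjusted p = 0.629), and Aurkb at 59.2, 51.1 and 55.2 RPKM had a log2 fold change of 0.13 (edgeR, standard error 0.112, adjusted p = 0.381). Aurka had 51.5, 48.5 and 54.0 RPKM (0.19, standard error 0.128, adjusted p = 0.253). Cdc20 had 188, 186 and 180.2 RPKM (0.19, standard error 0.117, adjusted p = 0.208), and Pttg1 had 41.7, 33.5 and 36.4 RPKM (-0.01, standard error 0.224, adjusted p = 0.968). Every one of these genes overlapped the control. Not all uncalled genes were near it: Birc5 had a mean of 70.5 RPKM against 99.4 RPKM in the control, Ect2 9.78 against 14.1 RPKM and Ttk 3.37 against 5.57 RPKM.

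The count at 405 min was 28 without control replicate 1 and 12 without Tu 405 min replicate 2. A fit of all 6 groups with 1 shared spread called 10. The shares of all tested genes called in these fits are not given here, so the counts show only how far they move.

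Set against 135 min of tunicamycin, 7 mitosis genes were higher at 405 min (17.5%) and 8 lower (20%), beside 21.4% of all tested genes higher and 22.4% lower. These shares are near those of all tested genes, so the counts do not set the mitosis genes apart, and the values of the genes called follow. The 7 that rose were Plk1, Aurka, Aurkb, Bub3, Cenpa, Ndc80 and Cdc20. Cdc20 rose from 150, 108 and 110.1 RPKM to 188, 186 and 180.2 RPKM (log2 fold change 0.58, standard error 0.192, adjusted p = 0.0418, edgeR), Cenpa, the histone H3 variant that marks centromeres, from 20.9, 27.0 and 29.6 RPKM to 36.0, 36.0 and 42.5 RPKM (0.58, standard error 0.150, adjusted p = 0.0164), and Plk1 from 48.8, 57.1 and 59.1 RPKM to 79.7, 77.2 and 78.7 RPKM (0.52, standard error 0.113, adjusted p = 0.00792). The 2 times did not overlap for these 3 genes. Aurka and Aurkb each had a log2 fold change of 0.47 and Ndc80 one of 0.51, with adjusted p = 0.0180, 0.0268 and 0.0393 from edgeR.

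The 8 that fell between 135 and 405 min were Cdc25b, Incenp, Cenpe, Cenpf, Anln, Espl1, Top2a and Foxm1. Cenpf fell from 3.60, 7.47 and 7.85 RPKM to 2.36, 2.13 and 2.30 RPKM (log2 fold change -1.45, standard error 0.246, adjusted p = 0.00270, edgeR) and Cenpe from 5.19, 10.3 and 9.42 RPKM to 4.26, 3.33 and 3.57 RPKM (-1.14, standard error 0.222, adjusted p = 0.00506). Foxm1 fell from 61.9, 66.0 and 67.4 RPKM to 37.5, 31.4 and 33.5 RPKM (-0.93, standard error 0.119, adjusted p = 0.000821). The samples did not overlap for these 3 genes. Top2a had 21.2, 36.3 and 36.1 RPKM at 135 min and overlapped (-0.61, standard error 0.196, adjusted p = 0.0381). The total of 15 was 28 without Tu 135 min replicate 1, where 10 were higher and 18 lower, 8 without Tu 135 min replicate 2, and 6 without either Tu 405 min replicate 2 or replicate 3. With the GC offset it was 23, of which 11 were higher and 12 lower. No share of all tested genes is given beside these totals, so they do not set the mitosis genes apart either.

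**Figure D4:**
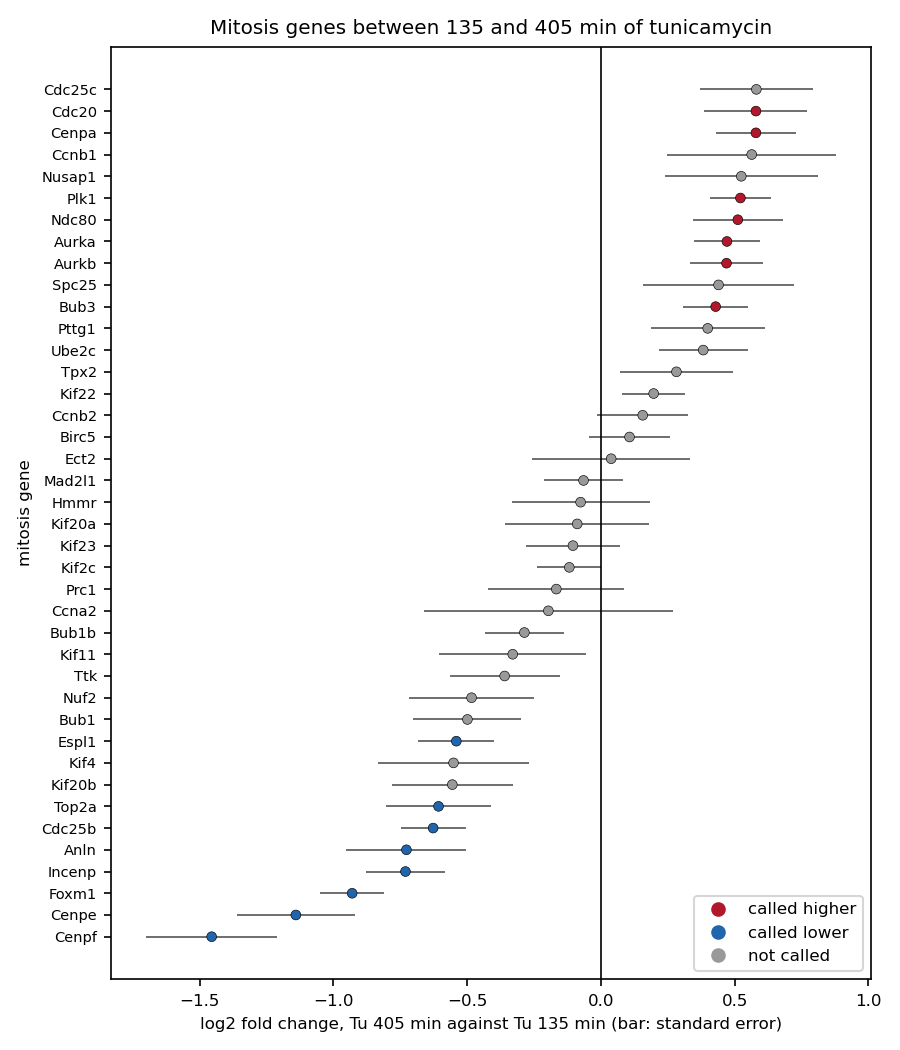
Log2 fold change at 405 against 135 min of tunicamycin for each of the 40 mitosis genes, with its standard error from edgeR as the bar. Red points are the 7 genes called higher, blue points the 8 called lower and grey points those not called. The values run from -1.45 for Cenpf to 0.58 for Cdc25c.

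HS and tunicamycin were compared at the 2 times they share. At 45 min no mitosis gene differed by edgeR, beside 0.141% of all tested genes lower under HS and 0.0628% higher. At an unadjusted p under 0.05, 1 was lower and 3 were higher, beside 9.65% and 14.4% of all tested genes, and DESeq2 called 0. Plk1 had 52.5, 73.3 and 55.6 RPKM under HS and 50.1, 51.0 and 47.1 RPKM under tunicamycin (log2 fold change 0.58, standard error 0.220, adjusted p = 0.187, edgeR). Without HS 45 min replicate 3, 22 were lower under HS and 7 higher, 29 in all, beside 28.8% of all tested genes lower and 26.8% higher.

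At 135 min 1 mitosis gene differed, Kif22, beside 0.817% of all tested genes lower under HS and 1.3% higher. Kif22 had 11.4, 5.78 and 8.29 RPKM under HS and 23.8, 24.5 and 24.3 RPKM under tunicamycin, without overlap (log2 fold change -1.42, standard error 0.218, adjusted p = 0.0380, edgeR). Cdc20, at 48.8, 56.0 and 49.0 RPKM under HS and 150, 108 and 110.1 RPKM under tunicamycin, did not overlap either and had a log2 fold change of -1.13 (edgeR, standard error 0.245, adjusted p = 0.0664). The call of Kif22 was lost without HS 135 min replicate 3 and without any of the 3 tunicamycin samples. The count was then 0, and without HS 135 min replicate 1 it was 2.

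Other genes of the cell cycle were counted in lists made by function. Of 71 further mitosis genes, 6 fell and 0 rose at 135 min of HS, 4 fell and 0 rose at 45 min of tunicamycin, and 31 fell and 1 rose at 405 min of tunicamycin, with medians of -0.66, -0.27 and -0.42. The shares of all tested genes, against which the lists are to be read, were 2.64% lower and 4.75% higher at 135 min of HS, 2.17% and 4.01% at 45 min and 23.5% and 23.3% at 405 min of tunicamycin. Mastl (Greatwall), the kinase that protects Cdk1 substrates from dephosphorylation, had 7.51 ± 0.445 against 23.4 ± 2.28 CPM (counts scaled to a common library size, SD, n = 3) at 135 min of HS (log2 fold change -1.64, adjusted p = 0.0135, edgeR). Fam83d, which brings the chromokinesin Kif22 to the spindle, fell at 135 min of HS (-1.37, adjusted p = 0.0199) and at 45 min of tunicamycin (-1.14, adjusted p = 0.00467). Of 21 S phase genes, 19 fell and 0 rose at 405 min of tunicamycin, with a median of -1.07, and 2 fell at 135 min of HS. Tk1 (thymidine kinase) had 70.8 ± 4.40 against 226 ± 9.95 CPM at 405 min (log2 fold change -1.68, adjusted p = 3.44e-05, edgeR). Of 13 APC/C core subunits, 6 fell and 1 rose at 405 min of tunicamycin and 2 fell at 135 min of HS, where Anapc2, part of the catalytic core, had 96.5 ± 8.12 against 184 ± 30.4 CPM (log2 fold change -0.93, adjusted p = 0.0359, edgeR).

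**Figure D5:**
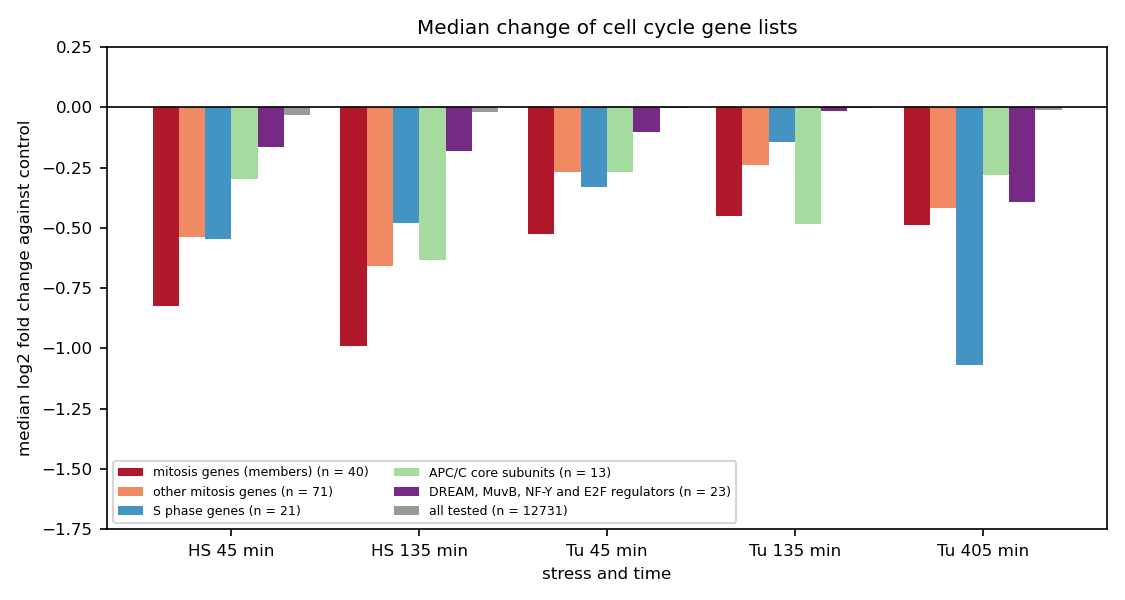
Bars are the median log2 fold change against control of each gene list at each stress and time, beside all 12731 tested genes. Of the lists, the mitosis genes have the lowest median at both times of HS and at 45 min of tunicamycin, and S phase genes at 405 min of tunicamycin, at -1.07.

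Of 23 subunits of DREAM, MuvB and NF-Y, members of the E2F family and related regulators, 10 fell and 2 rose at 405 min of tunicamycin, when 23.5% of all tested genes were lower and 23.3% higher, and 2 rose at 135 min of HS, a share near the 4.75% of all tested genes that were higher. Mybl2 (B-Myb), which joins MuvB to activate G2 genes, had 37.1 ± 1.82 against 82.98 ± 5.84 CPM at 405 min of tunicamycin (log2 fold change -1.16, standard error 0.119, adjusted p = 0.000185, edgeR). At 135 min of HS it had 87.6 ± 20.3 against 80.9 ± 6.09 CPM and did not pass (adjusted p = 0.755). Cdkn1a (p21), an inhibitor of cyclin-dependent kinases, rose at 135 min of HS, from 92.3 ± 4.45 to 161 ± 16.3 CPM (log2 fold change 0.80, standard error 0.182, adjusted p = 0.0405, edgeR). At 405 min of tunicamycin it had 103 ± 4.95 against 94.7 ± 4.69 CPM (log2 fold change 0.12, adjusted p = 0.397). Cdc2a, the row for Cdk1, had 24.6, 48.0 and 51.1 RPKM in the control, 26.7, 9.26 and 17.4 RPKM at 135 min of HS and 30.0, 25.1 and 29.0 RPKM at 405 min of tunicamycin. It overlapped the control at both times, with log2 fold changes of -1.06 and -0.45 and adjusted p = 0.107 and 0.139 from edgeR.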

How the data were processed

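Per the labels and the study's methods, poly(A) RNA of 18 samples in 6 groups of 3 was sequenced on an Illumina instrument. The methods describe a modified Illumina library protocol and also the NuGEN Encore SP+ kit with the Mondrian SP+ system. Which of these made which library is not stated in the sources used here. A difference in library preparation therefore cannot be told apart from other spread between libraries, GC content included. The authors used the DNAnexus platform for alignment to the mouse genome (mm9 in the submitters' processing notes) and for read counts over RefSeq genes. The aligner, the counter and their versions are not given in the sources used here. The authors deposited, for each sample, an estimated count of reads per gene that is not normalized (17.7% to 23.2% of low values in a library were not whole) and an RPKM value, which they scaled by gene length and library. Counting is not stated to use strand, so reads of a gene and of an overlapping antisense gene cannot be told apart.

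Estimated counts were rounded, genes with at least 1 read in each of the 18 samples were kept (12731 of 20207), and each pair of groups was tested with edgeR 4.0.16 (quasi-likelihood test, TMM scaling, 3 against 3 samples, Benjamini-Hochberg adjusted p under 0.05). Levels are RPKM as deposited, and CPM in the text is scaled by TMM within a comparison. Steps were tested on simulated data. The floor of 3 reads was worth between 0.0451 and 0.0898 CPM, depending on the library, and allows for counting error alone. Replicates differed far beyond counting noise in every pair (chi-square per degree of freedom 15.1 to 824), so none was counted as a copy.

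The members and lists were chosen with earlier results of these data known. All members were counted. Full statistics are given for the 3 largest rises and falls past the threshold in each comparison, sample values for 15 members named for their roles and for the highest and lowest in the control, and at most 3 examples from other lists, with Cdkn1a and Mybl2 given whatever their result. Ect2, Nuf2, Espl1, Ccna2, Incenp, Ube2c, Ttk and Birc5 were added after their values were seen. Alternatives were edgeR's filterByExpr, any gene with 1 read in 1 compared sample, DESeq2 1.42.0, its size factors, total counts, a joint fit of the 6 groups, a block for the replicate number, an offset for transcript GC content (lowess, span 0.3, for the 96.6% of genes matched to a GENCODE transcript of the same build) alone and with the block, and each replicate left out. The offset also removes true differences that follow GC content. Same-numbered samples deviated together in every pair only for 135 min of tunicamycin against the control (correlations of 0.29, 0.25 and 0.21 over genes). The labels number the replicates and state no pairing, and with 3 samples per group these correlations cannot show a pairing. The block in that comparison called 0 mitosis genes, as without it. Promoter windows came from RefSeq on GRCm38.p6, another build than that of the files, and were matched by symbol.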

Additional observations from a re-analysis of the deposited data

Results flagged for a closer look

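Kif22, the kinesin that binds chromosome arms, was the mitosis gene that edgeR called different between HS and tunicamycin at the same time, by a test of the difference itself. DESeq2 called 6 mitosis genes in this comparison, and a joint fit of all groups and the GC offset called 8 each. The shares of all tested genes under these settings are not given here. At 135 min the log2 fold change of Kif22 under HS against tunicamycin was -1.42 (standard error 0.218, adjusted p = 0.0380, edgeR). All 3 HS samples (5.78 to 11.4 RPKM) lay below all 3 tunicamycin samples (23.8 to 24.5 RPKM). With 1 replicate left out the log2 fold change stayed between -1.60 and -1.23, and the call was lost in 4 of 6 such fits.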

How the results depend on the processing

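The 31 called results of named genes kept their direction in all 279 refits under other settings and lost the call in 31 of these, 19 of them with the replicate block, 6 with 1 fit of all groups, 3 with total counts, 3 with the GC offset and block together and 0 with the GC offset alone. With 1 replicate left out, 80 of 186 refits lost the call and 0 changed direction. At 405 min of tunicamycin against the control, Cenpf, Cenpe, Ccnb1, Kif11, Kif20a and Top2a lost theirs in 0 of 6 such fits. Foxm1 lost its call in 1, Bub1b in 4 and Nuf2 in 5. Between 135 and 405 min, Plk1, Cenpf, Cenpe and Foxm1 lost it in 0, Cenpa in 2 and Aurka in 3. Top2a lost it in 4, and Cdc20, Aurkb and Ndc80 in 5. At 45 min of tunicamycin, Ccnb1 lost it in 3, Cdc20 and Plk1 in 4, and Kif20a and Aurkb in 5. DESeq2 called 2 mitosis genes at 45 min of HS, 19 at 135 min of HS, 14 at 45 min and 3 at 135 min of tunicamycin, 1 between the HS times and 6 between HS and tunicamycin at 135 min. One fit of all 6 groups called 8 and 22 at 45 and 135 min of HS, 2 and 10 at 135 and 405 min of tunicamycin, 5 between the HS times, and 1 and 8 between the stresses at 45 and 135 min. The GC offset gave 15 at 135 min of HS, 18 and 2 at 45 and 135 min of tunicamycin, 1 between the HS times, 23 between 135 and 405 min of tunicamycin and 8 between the stresses at 135 min, where total counts gave 4. With the replicate block 0 were called at 135 min of HS, at 45 min of tunicamycin and between the stresses at 135 min (0 also with the GC offset and block), and 7 between 135 and 405 min of tunicamycin. In these comparisons same-numbered samples did not deviate together in every pair, and the labels state no pairing. With 3 samples per group this cannot show whether same-numbered samples were handled together. The cause of these changes was not tested. The counts of mitosis genes above stand without the shares of all tested genes. A setting that calls more genes of every kind is therefore not told apart here from one that calls more mitosis genes.

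With 1 replicate left out, counts ranged from 0 to 26 and from 0 to 13 at 45 and 135 min of HS, from 0 to 30, 0 to 1 and 12 to 28 at 45, 135 and 405 min of tunicamycin, stayed at 0 to 0 between the HS times, and ranged from 6 to 28 between 135 and 405 min of tunicamycin and from 0 to 29 and 0 to 2 between the stresses at 45 and 135 min. The median log2 fold change of the mitosis genes changed sign between the HS times without HS 45 min replicate 3 (0.19) or HS 135 min replicate 2 (0.06), and between 135 and 405 min of tunicamycin without Tu 135 min replicate 2 (0.01) or replicate 3 (0.0874). Over all replicates left out it lay between -0.50 and 0.19 and between -0.21 and 0.0874, respectively. Against the control it stayed below 0 in every fit, from -1.34 to -0.29. At these depths the errors reflect the spread between libraries more than counting.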

Other observations

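Mean levels above the control that did not pass the test included the following, chosen after their values were seen. Incenp, the scaffold of the chromosomal passenger complex, had 77.7, 65.4 and 72.3 RPKM at 135 min of tunicamycin against 35.5, 59.2 and 53.7 RPKM in the control, without overlap (log2 fold change 0.61, standard error 0.212, adjusted p = 0.200, edgeR). Foxm1 had 61.9, 66.0 and 67.4 RPKM at that time against 48.9, 56.5 and 50.3 RPKM, also without overlap (0.38, standard error 0.154, adjusted p = 0.239). Ube2c had 197, 212 and 233 RPKM at 405 min of tunicamycin against 112, 201 and 183 RPKM, with overlap (0.48, standard error 0.199, adjusted p = 0.0814).

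Across the 40 mitosis genes, the log2 fold change against the control had a Spearman correlation with transcript GC content of 0.61 at 45 min and 0.27 at 135 min of HS, and of -0.12, 0.26 and 0.44 at 45, 135 and 405 min of tunicamycin. Over the 12437 tested genes with a GC value it was 0.55, 0.39, 0.06, 0.35 and 0.12. Genes here share the same libraries and these values are descriptions.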
